A study of Mus musculus with 17 samples.

Results

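Tap1, Tap2, Tapbp, Psmb9, Psmb10, Psme1, Psme2 and B2m, 8 genes of MHC class I antigen processing, were followed in mouse macrophages that lacked or carried SOCS3 and were stimulated with IL-6. Members were the probe sets whose single gene symbol in the platform annotation is one of these names. The rule found 11 of the array's 12488 probe sets, for 7 of the 8 genes. Psme2 is read only by probe sets that the annotation also gives to Psme2b, so no value is given for it. Fetal liver cells, SOCS3-/- (called KO here) or SOCS3+/+ (called WT), were used to rebuild the blood system of irradiated mice, and macrophages were then grown from the donor-derived marrow. All groups thus passed through irradiated hosts; the extent of the deletion and any pooling of marrow are not stated in the labels. KO cells were measured without IL-6 and at 100 and 400 min of 10 ng/ml IL-6, with 3 arrays each, and WT cells likewise with 2, 3 and 3 arrays, 17 in all. The replicates are numbered, but nothing says that they came from separate cultures or mice, so p-values measure only the spread between these arrays, which may be technical.

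MHC class I molecules show peptides from inside the cell to T cells. The proteasome cuts proteins into such peptides, and in cells exposed to interferon the inducible catalytic subunits encoded by Psmb8, Psmb9 and Psmb10 replace the constitutive ones to form the immunoproteasome. Psme1 and Psme2 encode the PA28 cap, which opens the proteasome core. The transporter made of Tap1 and Tap2 carries peptides into the endoplasmic reticulum, where tapasin, the product of Tapbp, holds empty class I molecules beside it, and B2m encodes beta-2 microglobulin, the light chain of class I. SOCS3 is a feedback inhibitor of gp130, the subunit through which IL-6 signals, and the comparison asks how its loss changes the IL-6 response of these genes.

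The labels and arrays were checked first. The deposited intensity of Socs3 on its brighter probe set was 14.9 to 883.7 on the 9 KO arrays and 72.9 to 2647.6 on the 8 WT arrays. The KO maximum belongs to the array labelled KO 400 min replicate 3. Each call of the 8 genes, the pathway lists and the cell markers that uses it is also given without it. WT 100 min replicate 3 read 429.5 for Socs3, below that KO array, against 2647.6 and 1911 on WT 100 min replicates 1 and 2. Eif2s3y, a Y-chromosome gene, lay at 6.2 to 121.5 on KO and 252.2 to 783.3 on WT arrays, and Xist at 220.5 to 1010 on KO and 10.7 to 214.3 on WT arrays, so the genotypes also differ in these sex-linked genes, and their part in a genotype difference cannot be told apart from that of SOCS3. Of the 5 arrays of replicate 3, 4 lay above all 12 arrays of replicates 1 and 2 on the first principal component, so values within replicates 1 and 2 and within replicate 3 stand beside the calls. The 9 macrophage markers were not equally bright. Csf1r ranged from 12514.6 to 28828.9 and Cd68 from 9651.2 to 14811.2. Mrc1 ranged from 242.1 to 6741.3, Msr1 from 274.3 to 3307.9 and Itgam from 337.9 to 2257.2. The 9 summed to 84893.9 to 86309.8 on KO 400 min arrays, below 87245.5 to 97431.6 in unstimulated KO and 89640 to 95141.7 in WT cells at 400 min. The WT sums at 400 min likewise lay below the 100068 to 101393 of unstimulated WT cells. At 100 min the sums were 86128.3 to 101086 in KO and 96239.2 to 105552 in WT cells. Fcgr1 rose in KO cells at 400 min by a log2 difference of 1.96 (adjusted p = 0.0168 in limma, and 0.0411 without the array labelled KO 400 min replicate 3). Of the T and NK cell markers 0 of 4 on the array were bright enough to be tested, but 4 of 4 B cell markers and 7 of 8 neutrophil markers were. Pax5, a B cell marker, ranged from 130 to 460.5 and S100a8, a neutrophil marker, from 121.4 to 558.3.

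Tap1, a subunit of the peptide transporter, rose in KO cells by 100 min of IL-6 and was still higher there at 400 min, when it was also higher than in WT cells. On its first, brighter probe set the deposited intensities of Tap1 in KO cells were 932.2, 976.9 and 1274.9 unstimulated, 2743.9, 2746.1 and 2261.3 at 100 min, and 2785.1, 2669.8 and 2448.9 at 400 min of IL-6, for replicates 1 to 3. In WT cells Tap1 read 1237.9 and 1137.8 unstimulated, 2075.6, 2352.2 and 1381.4 at 100 min, and 979, 935.9 and 756.4 at 400 min. At 400 min every KO array was thus above every array of stimulated or unstimulated WT cells, whereas the WT arrays at 400 min lay below both unstimulated WT arrays.

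The test was limma on log2 of quantile-normalized intensities, with Benjamini-Hochberg adjustment over 9871 tested probe sets; a call means an adjusted p under 0.05, and differences are on the log2 scale with the standard error (SE). In KO cells 100 min of IL-6 raised Tap1 by 1.30 (SE 0.22, adjusted p = 0.0145), and it was 1.54 within replicates 1 and 2 and 0.82 within replicate 3. By 400 min the Tap1 rise was 1.34 (SE 0.22, adjusted p = 0.00767), with 1.51 within replicates 1 and 2, 1.01 within replicate 3 and 1.36 without the array labelled KO 400 min replicate 3 (adjusted p = 0.0204). In WT cells Tap1 differed by 0.62 after 100 min (SE 0.25, adjusted p = 0.76) and by -0.45 after 400 min (SE 0.25, adjusted p = 0.846), and neither passed. Every WT 100 min array of Tap1 lay above both unstimulated WT arrays, as in 8.76% of all tested probe sets, and the difference was 0.81 within replicates 1 and 2. The KO response of Tap1 at 100 min exceeded the WT response by 0.67 (SE 0.33), which did not pass. WT 400 min against WT 100 min was -1.08 (SE 0.22, adjusted p = 0.191) for Tap1, with no overlap between the groups, and this difference passed without WT 100 min replicate 3 (-1.27, adjusted p = 0.0487).

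At 400 min Tap1 was higher in KO than in WT cells by 1.57 (SE 0.22, adjusted p = 0.00855), a fold of 2.97, with rank 7 by p among all tested probe sets. The Tap1 difference was 1.47 within replicates 1 and 2 (adjusted p = 0.0109), 1.76 within replicate 3 and 1.59 without the array labelled KO 400 min replicate 3 (adjusted p = 0.0176). It was 0.45 (adjusted p = 0.999) at 100 min and -0.22 (adjusted p = 0.934) unstimulated. The KO response of Tap1 at 400 min exceeded the WT response by 1.79 (SE 0.33, adjusted p = 0.181); limma called 0 probe sets in that comparison of responses, where 531 had an unadjusted p under 0.05. The call of Tap1 in KO cells at 100 min was lost without replicate 1 or 2 of KO unstimulated (adjusted p = 0.0876 and 0.0741) or of KO 100 min (adjusted p = 0.0961 and 0.089). The calls of Tap1 at 400 min held with each array left out, but all of its calls were lost in fits of only the groups compared, with an adjusted p of 0.194 for KO at 100 min, 0.104 for KO at 400 min and 0.112 for KO against WT.

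The second probe set of Tap1 read between 8.5 and 213.2 over all arrays and did not follow the first in KO cells against unstimulated. In KO cells it differed by -1.06 after 100 min (SE 0.71, adjusted p = 0.977 in limma) and by -0.67 after 400 min (SE 0.71, adjusted p = 0.794). KO against WT at 400 min, it was at 1.41 (SE 0.71, adjusted p = 0.602), and at 0.76 within replicates 1 and 2. The 95% interval of the 1.41 ran from -0.11 to 2.93, and 2 of the 3 WT 400 min arrays lay at the floor applied before the log2 step. In WT cells the second probe set had the sign of the first after 400 min (-1.57, adjusted p = 0.816) but not after 100 min (-0.13, adjusted p = 0.988). KO against WT, its sign was opposite to the first unstimulated (0.51) and at 100 min (-0.42), and none of these passed.

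**Figure D1:**
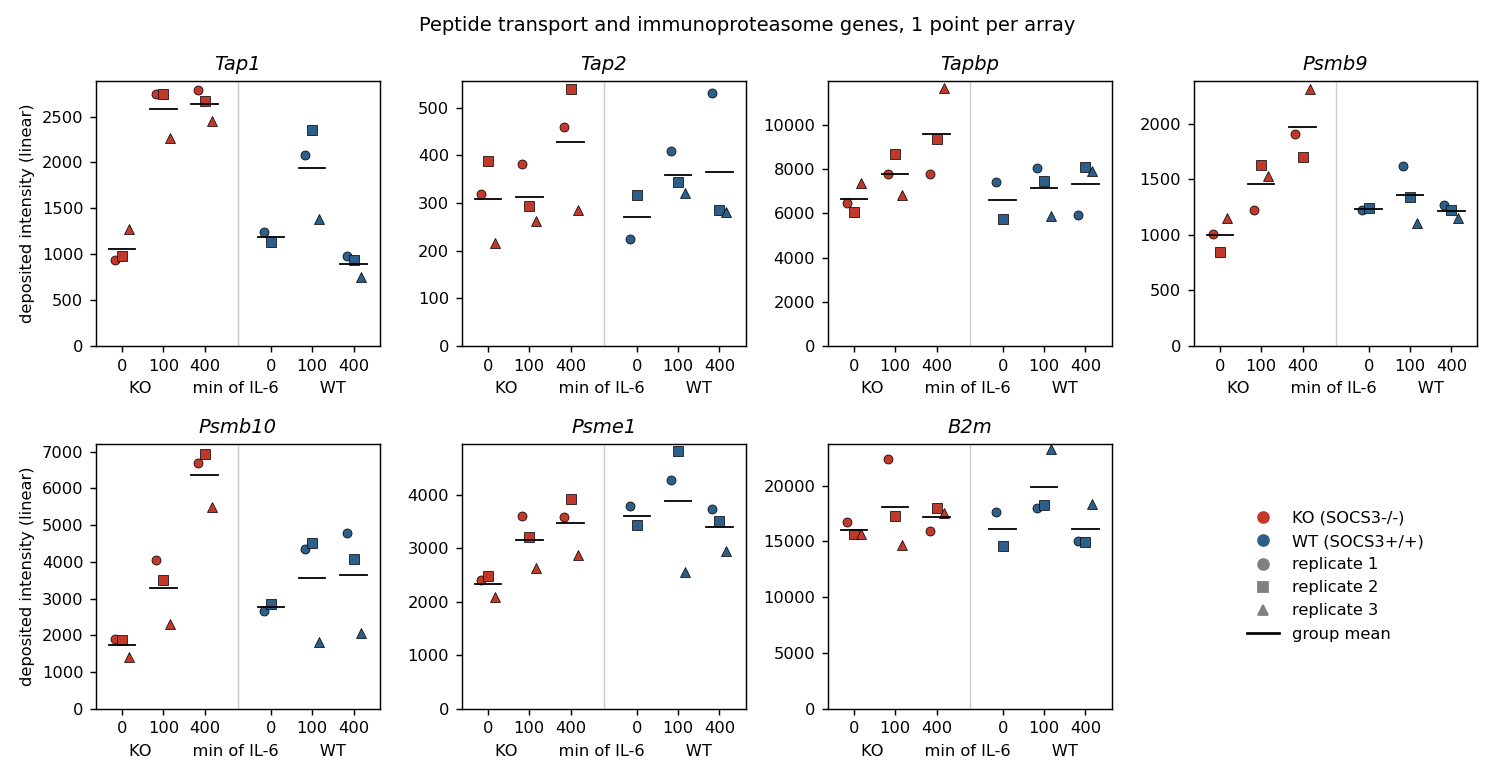
Deposited intensity (linear, from 0) of the brightest probe set of each of the 7 genes, 1 point per array, with KO in red on the left and WT in blue on the right of each panel, at 0, 100 and 400 min of IL-6; bars are group means and marker shapes are replicates. Tap1 at 400 min lies between 2448.9 and 2785.1 on the KO arrays and between 756.4 and 979 on the WT arrays.

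Psmb9, an inducible catalytic subunit of the immunoproteasome, is the neighbour of Tap1 on chromosome 17, and the genes are read in opposite directions from a shared stretch. In RefSeq's GRCm38.p6 their starts lie 226 bases apart, and their promoter windows, each from 250 bases before to 50 after a start, share 275 of 300 bases. The stretch between the starts, chr17:34187331-34187555 on the strand of Tap1, is shown because both genes were called in KO cells, with the CCAAT box in capitals.
Tap1-Psmb9: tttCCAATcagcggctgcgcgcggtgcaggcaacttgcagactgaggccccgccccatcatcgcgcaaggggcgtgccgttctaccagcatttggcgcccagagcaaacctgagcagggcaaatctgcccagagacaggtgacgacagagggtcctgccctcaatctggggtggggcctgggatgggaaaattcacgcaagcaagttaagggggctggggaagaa

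In KO cells the deposited intensities of Psmb9 were 1004, 843 and 1150.7 unstimulated, 1228, 1629.8 and 1525 at 100 min, and 1908.7, 1703.2 and 2309.7 at 400 min. In WT cells Psmb9 read 1222.8 and 1237.9 unstimulated, 1615.4, 1344 and 1108.1 at 100 min, and 1265.5, 1224 and 1151.6 at 400 min. The KO groups of the 3 times did not overlap each other, while the WT groups at 0 and 400 min overlapped. Psmb9 rose by 1.01 (SE 0.21, adjusted p = 0.0263 in limma) at 400 min in KO cells, a fold of 2.02, and its difference at 100 min, 0.58 (SE 0.21, adjusted p = 0.546), did not pass.

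In WT cells Psmb9 differed by -0.05 (SE 0.24, adjusted p = 0.995 in limma) at 400 min. The KO response of Psmb9 at 400 min exceeded the WT response by 1.06 (SE 0.32, adjusted p = 0.552), which did not pass. KO against WT, Psmb9 was at -0.37 (SE 0.24, adjusted p = 0.898) unstimulated and at 0.70 (SE 0.21, adjusted p = 0.27) at 400 min, where the KO and WT arrays did not overlap but the difference did not pass; it was 0.52 within replicates 1 and 2 and 1.05 within replicate 3. The call of Psmb9 in KO cells was lost without replicate 1 or 2 of KO unstimulated (adjusted p = 0.0857 and 0.117) and without replicate 1, 2 or 3 of KO 400 min (adjusted p = 0.0818, 0.0535 and 0.0776). Without that last array, in which Socs3 was high, Psmb9 differed by 0.88. It was also lost within replicates 1 and 2 (0.98, adjusted p = 0.0529) and in a fit of only the groups compared (adjusted p = 0.2); within replicate 3 Psmb9 differed by 1.07.

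Psmb10, on chromosome 8, encodes another inducible catalytic subunit and had the largest difference of these genes in KO cells at 400 min of IL-6. Its deposited intensities there were 1904.8, 1879.9 and 1409.7 unstimulated, 4048.1, 3505.2 and 2298.7 at 100 min, and 6691.9, 6938.7 and 5485.4 at 400 min. In WT cells Psmb10 read 2659.9 and 2858.6 unstimulated, 4341.9, 4509.1 and 1810 at 100 min, and 4774.4, 4074 and 2070 at 400 min. All KO arrays at 400 min lay above all WT arrays of Psmb10, and all unstimulated KO arrays below both unstimulated WT arrays.

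Psmb10 rose by 1.89 (SE 0.38, adjusted p = 0.0219 in limma) at 400 min in KO cells, a fold of 3.71, and was at 0.88 (SE 0.38, adjusted p = 0.718) at 100 min. The 400 min difference of Psmb10 was 1.82 within replicates 1 and 2 (adjusted p = 0.00304), 2.04 within replicate 3 and 1.97 without the array labelled KO 400 min replicate 3 (adjusted p = 0.042). The call was lost without replicate 1, 2 or 3 of KO unstimulated (adjusted p = 0.0637, 0.0647 and 0.0913) and without replicate 1 or 2 of KO 400 min (adjusted p = 0.0818 and 0.0859). In WT cells Psmb10 was at 0.30 (SE 0.42, adjusted p = 0.974) at 400 min over all arrays and at 0.68 (adjusted p = 0.283) within replicates 1 and 2. KO against WT, it was at -0.71 (SE 0.42, adjusted p = 0.866) unstimulated and 0.87 (SE 0.38, adjusted p = 0.528) at 400 min, and neither passed. The 400 min value of Psmb10 was 0.57 within replicates 1 and 2, 1.47 within replicate 3 and 0.50 without WT 400 min replicate 3. The KO response of Psmb10 at 400 min exceeded the WT response by 1.59 (SE 0.57, adjusted p = 0.798), which did not pass.

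The replicate 3 arrays of Psmb10 were the lowest of their group in each of the 5 groups that have such an array. With the groups as terms, Psmb10 was lower on replicate 3 than on replicates 1 and 2 by a log2 difference of -0.75 (SE 0.15, adjusted p = 0.0128 in limma), as was Psme1 at -0.40 (SE 0.11, adjusted p = 0.0495); 7.26% of all tested probe sets were called in that comparison. Tap2 was at -0.53 (adjusted p = 0.0839), Tap1 at -0.17 (first probe set, adjusted p = 0.507) and Psmb9 at 0.06 (adjusted p = 0.827). No replicate 3 array exists among the unstimulated WT arrays used here, so the WT responses, and KO against WT unstimulated, set groups with such an array against a group without. With a term for replicate 3 in the fit, Psmb10 in WT cells was at 0.45 after 100 min (adjusted p = 0.796) and at 0.55 after 400 min (adjusted p = 0.635). With that term Psme1 in WT cells was at 0.15 after 100 min (adjusted p = 0.945) and at 0.01 after 400 min (adjusted p = 0.996). KO against WT unstimulated, the same fit gave -0.47 for Psmb10 (adjusted p = 0.804) and -0.51 for Psme1 (adjusted p = 0.712), and none of these passed.

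For comparison, the stretch before the start of Psmb10, chr8:105938393-105938642 on the minus strand, is given with that of B2m, chr2:122147437-122147686 on the plus strand, since B2m differed least of the 7 genes in KO cells at 400 min. Matches to 4 motifs, searched on both strands of the whole promoter windows, are in capitals: GAS (TTCNNNGAA), the ISRE core (GAAA, any 2 bases, then GAAA), the NF-kappaB consensus and the CCAAT box, which reads ATTGG where it lies on the other strand.
Psmb10: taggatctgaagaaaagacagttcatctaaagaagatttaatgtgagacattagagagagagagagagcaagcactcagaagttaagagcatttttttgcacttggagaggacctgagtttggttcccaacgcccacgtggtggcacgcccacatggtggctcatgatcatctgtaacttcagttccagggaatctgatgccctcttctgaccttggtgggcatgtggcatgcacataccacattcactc
B2m: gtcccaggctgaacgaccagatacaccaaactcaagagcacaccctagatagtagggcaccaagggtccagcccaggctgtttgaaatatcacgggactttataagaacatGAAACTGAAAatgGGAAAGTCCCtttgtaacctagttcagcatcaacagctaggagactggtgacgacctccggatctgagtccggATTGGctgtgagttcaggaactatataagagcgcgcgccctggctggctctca

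In B2m the ISRE core match begins 139 bases before the start and the NF-kappaB match, which does not overlap it, 126 bases before. Psme1 holds an ISRE core match that begins at base 10 after the start, shown within chr14:55578493-55578522 on the plus strand.
Psme1: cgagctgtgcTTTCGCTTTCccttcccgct
Over the 32851 promoter windows of the RefSeq table, 8.3% hold a GAS match, 3.44% an ISRE core match, 8.46% an NF-kappaB match and 37.4% a CCAAT box. Of the 7 genes 6 had a window, all except Tap2. The windows of Tap1, Psmb9, Psmb10 and Tapbp each held 0 matches to GAS, to the ISRE core and to the NF-kappaB consensus. A match is a description of these letters and not of binding, and no match says only that the letters are not in that window.

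Psme1, a subunit of the PA28 cap on chromosome 14, had no call in any of the 11 comparisons of times and genotypes. In KO cells its brighter probe set read 2397, 2480.2 and 2090.7 unstimulated, 3590.2, 3212.1 and 2635.1 at 100 min, and 3582, 3918.8 and 2879.5 at 400 min. In WT cells Psme1 read 3780.4 and 3433 unstimulated, 4266.2, 4812.7 and 2560.8 at 100 min, and 3726.2, 3503.4 and 2941.4 at 400 min. The stimulated KO arrays did not overlap the unstimulated ones, and the unstimulated KO arrays lay below the unstimulated WT arrays.

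The Psme1 difference in KO cells at 400 min was 0.55 (SE 0.24, adjusted p = 0.369 in limma), with a 95% interval of 0.03 to 1.07. KO against WT, Psme1 was at -0.65 (SE 0.27, adjusted p = 0.834) unstimulated, -0.27 (adjusted p = 0.999) at 100 min and 0.02 (adjusted p = 0.99) at 400 min. The other probe set of Psme1 read 7.7 to 171 and was too dim to be tested, so 10 of the 11 probe sets were tested.

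B2m was bright in every group. Its deposited intensities were 15637.5 to 16728 in unstimulated KO cells, 14659.4 to 22417 at 100 min and 15885.5 to 17998 at 400 min, and in WT cells 14573.1 to 17624.9, 18026.4 to 23307.3 and 14928.4 to 18387.4 at the same times. The difference of B2m in KO cells at 400 min was 0.07 (SE 0.19, adjusted p = 0.941 in limma), with a 95% interval of -0.34 to 0.47, and in KO against WT at 400 min 0.16 (SE 0.19, adjusted p = 0.87), with an interval of -0.24 to 0.56.

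Tap2, the partner of Tap1 in the transporter, was read by 1 probe set. In KO cells Tap2 read 216.7 to 388.8 unstimulated, 262.3 to 382.6 at 100 min and 285 to 539.9 at 400 min, and in WT cells 225.2 to 318, 322.2 to 408.9 and 280.9 to 532. The groups overlapped in every comparison except WT 100 min against unstimulated WT. The difference of Tap2 was 0.45 (SE 0.33, adjusted p = 0.68 in limma) in KO cells and 0.40 (SE 0.37, adjusted p = 0.959) in WT cells after 400 min. Between KO and WT at that time Tap2 differed by 0.22 (SE 0.33, adjusted p = 0.902). The 95% interval of that last Tap2 difference was -0.50 to 0.94. Without the array labelled KO 400 min replicate 3, Tap2 was at 0.77 in KO cells after 400 min and at 0.55 in KO against WT, and it was at -0.13 in KO against WT within replicate 3.

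Tapbp was read by 3 probe sets, and none was called in any of the 11 comparisons. On the first, brightest one, Tapbp read 6474.8, 6067.6 and 7366.1 in unstimulated KO cells, 7767.7, 8681.7 and 6847.9 at 100 min, and 7775, 9354.7 and 11689.9 at 400 min. The WT arrays lay between 5767.2 and 8115.4 at all times on that probe set. The Tapbp difference in KO cells at 400 min was 0.49 (SE 0.24, adjusted p = 0.44 in limma) on the first, 0.98 (SE 0.35, adjusted p = 0.249) on the second and 0.41 (SE 0.24, adjusted p = 0.567) on the third. Without the array labelled KO 400 min replicate 3 these Tapbp values were 0.30, 0.83 and 0.25.

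On the second probe set of Tapbp, WT cells read 2332.6, 2675.8 and 1405.2 at 400 min against 675.9 and 1011.8 unstimulated, a difference of 1.29 (SE 0.40, adjusted p = 0.557 in limma) that did not pass. It was 0.06 (adjusted p = 0.995) and 0.02 (adjusted p = 0.999) on the other probe sets of Tapbp in the same comparison. Against WT at 400 min, Tapbp in KO cells was at 0.41, 0.34 and 0.35 on the 3 probe sets, and none passed (adjusted p = 0.687, 0.851 and 0.742). Without the array labelled KO 400 min replicate 3 they were 0.21, 0.20 and 0.19, and the second was at -0.08 within replicates 1 and 2.

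**Figure D2:**
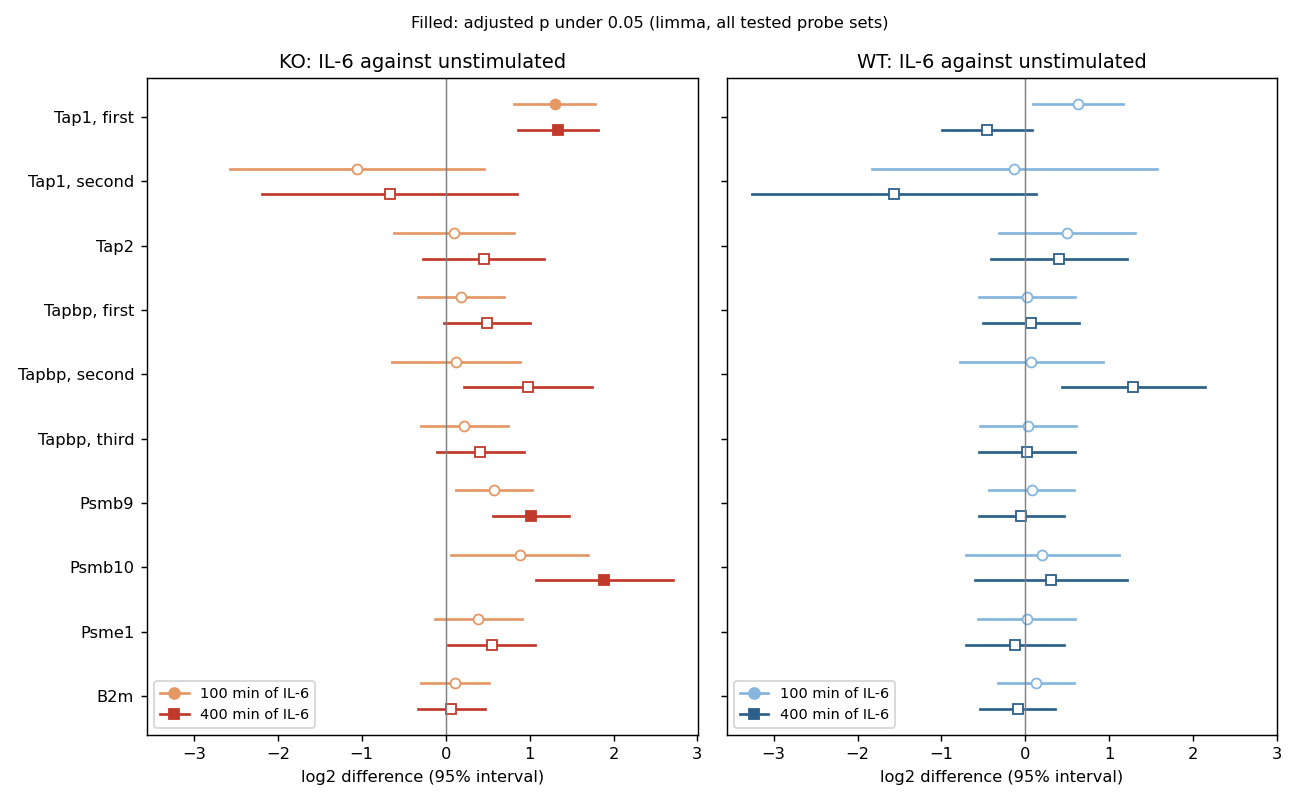
Log2 differences with 95% intervals between IL-6 and unstimulated cells for the 10 tested probe sets, KO on the left and WT on the right; filled symbols have an adjusted p under 0.05. In KO cells the filled symbols are Tap1 (1.30 and 1.34), Psmb9 (1.01) and Psmb10 (1.89); in WT cells there are 0.

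Over the group, KO cells at 100 min had 1 of the 10 tested probe sets called higher, where 0.537% of all tested probe sets were called higher, and at 400 min 3 of 10, where 1.20% were. Both comparisons share the unstimulated KO arrays. The median of the 10 differences was 0.20 at 100 min and 0.52 at 400 min, beside -0.04 for all tested probe sets at each time. In 6 of the 10 the KO 400 min intensities lay wholly above the unstimulated ones, against 8.33% of all tested probe sets, and at 100 min in 4 of the 10, against 5%.

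In WT cells limma called 0 of the 10 at 100 min and 0 at 400 min, where 0.0101% of all tested probe sets were called at each time; 1 of the 10 had an unadjusted p under 0.05 at each time, as did 604 and 618 of the 9871. The median was 0.07 at 100 min and -0.02 at 400 min, beside -0.01 for all tested probe sets at each time. At 100 min 3 of the 10 lay wholly above the unstimulated WT arrays, where 8.76% of all tested probe sets did; at 400 min the second probe set of Tapbp lay wholly above, as did 994 of the 9871 tested, and the first of Tap1 wholly below, where 11.9% did. Between 400 and 100 min limma called 0 of the 10 in KO and 0 in WT cells, where 0% of all tested probe sets were called, and 2 of the 10 had an unadjusted p under 0.05 in each genotype, as did 891 of the 9871 in KO and 622 in WT cells. In KO cells 3 of the 10, Psmb9, Psmb10 and the second of Tapbp, lay wholly higher at 400 than at 100 min, as 7.85% of all tested probe sets did. In WT cells the second of Tapbp lay wholly higher, where 6.96% did, and the first of Tap1 wholly lower, where 4.76% did.

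Between genotypes, 1 of the 10 was called higher in KO than WT cells at 400 min, Tap1, where 0.314% of all tested probe sets were. The median difference was 0.38, beside -0.02 for all tested probe sets, and 3 of the 10, Tap1, Psmb9 and Psmb10, did not overlap, against 6.74% of all tested probe sets. At 0 and 100 min limma called 0 of the 10, where 0% and 0.0405% of all tested probe sets were called, with 1 and 0 at an unadjusted p under 0.05, against 591 and 483 of the 9871, and medians of -0.03 and 0.06. Unstimulated, 3 of the 10, Psmb9, Psmb10 and Psme1, lay wholly lower in KO than in WT cells, where 11.9% of all tested probe sets did. The second probe set of Tapbp lay wholly higher, where 10.6% did. KO has a replicate 3 array there and WT has none. In the difference of KO and WT responses at 400 min limma called 0 of the 10, where 0% of all tested probe sets were called. An unadjusted p under 0.05 was reached there by 3 of the 10, Tap1, Psmb9 and Psmb10, as by 531 of the 9871.

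**Figure D3:**
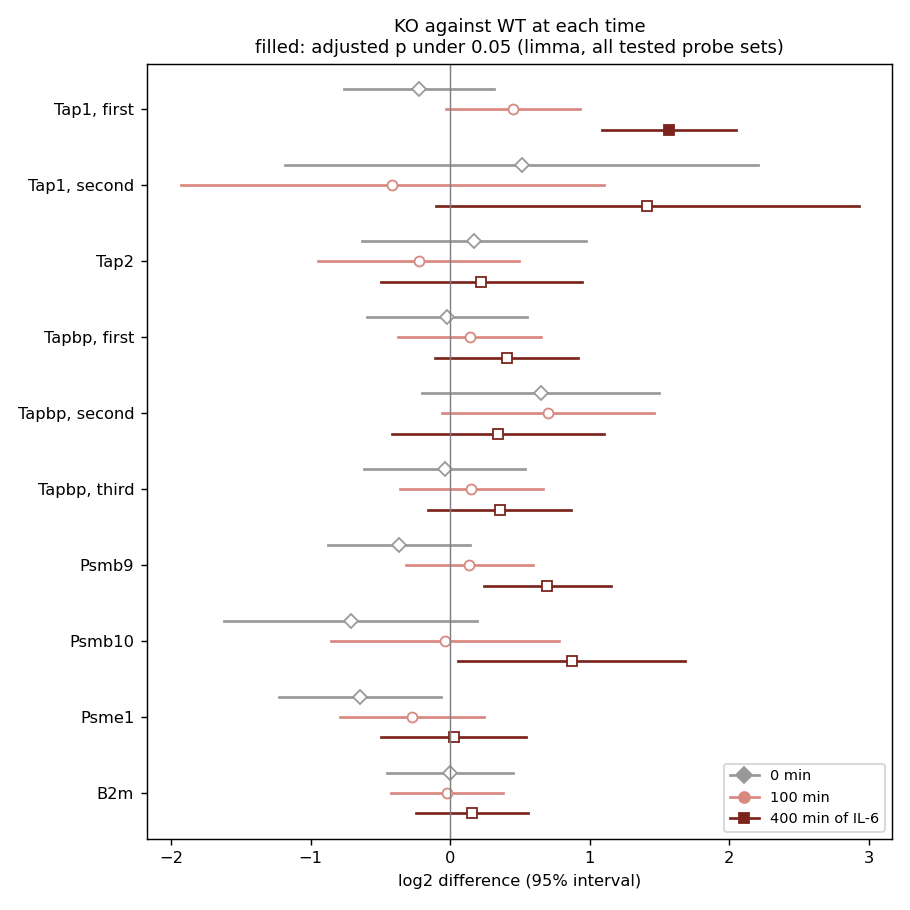
Log2 differences of KO against WT cells with 95% intervals at 0, 100 and 400 min of IL-6 for the 10 tested probe sets; filled symbols have an adjusted p under 0.05. Tap1 at 400 min, at 1.57, is the filled symbol, and Psmb9, Psmb10 and Psme1 lie below 0 unstimulated.

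The other genes of the pathway were read from lists chosen with earlier results of these data known. Of 15 tested MHC class I heavy chain genes, 15 peptide loading and trimming genes, 14 subunits of the 20S core, 6 further immunoproteasome subunit and assembly genes and 22 genes of proteasome caps and activators, limma called 0 in KO cells at 400 min and 0 in KO against WT at 400 min. An unadjusted p under 0.05 was reached by 2, 4, 1, 2 and 5 of them in KO cells at 400 min and by 2, 0, 0, 0 and 0 in KO against WT, as by 1202 and 860 of all 9871 tested probe sets. Their medians in KO cells at 400 min were 0.07, 0.06, 0.18, 0.02 and 0.17, beside -0.04 for all tested probe sets. Without the array labelled KO 400 min replicate 3, Cd1d1, of the heavy chain list, was called lower in both comparisons (adjusted p = 0.0105 and 0.0219 in limma). Within replicates 1 and 2 it was at -1.71 (adjusted p = 0.0208) in KO cells and -1.81 (adjusted p = 0.026) against WT. Pdia6, of the loading list, was there at 1.25 (adjusted p = 0.0269) in KO cells. Both were named after their values were seen.

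Psmb8, the remaining inducible catalytic subunit and a neighbour of Tap1 and Tap2, was singled out after its values were seen. It was at 0.75 (SE 0.24, adjusted p = 0.167 in limma) in KO cells at 400 min, and at 1.03 (adjusted p = 0.0393) within replicates 1 and 2. Psmb8 in WT cells differed by 0.19 after 400 min (SE 0.26, adjusted p = 0.972), and KO and WT cells differed by 0.50 at that time (SE 0.24, adjusted p = 0.574).

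Of 18 tested genes for factors known to act on these promoters or on interferon and gp130 signalling, 1 rose in KO cells at 100 min and 2 at 400 min, and 2 were higher in KO than in WT cells at 400 min, where 0.537%, 1.20% and 0.314% of all tested probe sets were. Irf1, a transcription factor known to act on the shared Tap1 and Psmb9 promoter, rose in KO cells by 2.63 after 100 min (SE 0.35, adjusted p = 0.00326 in limma), a value named after it was seen, and by 2.67 after 400 min (SE 0.35, adjusted p = 0.00198, and 0.00577 without the array labelled KO 400 min replicate 3). At 400 min Irf1 was higher in KO than in WT cells by 2.15 (SE 0.35, adjusted p = 0.0201), and without the array labelled KO 400 min replicate 3 its adjusted p was 0.0323. Stat3, the main signal carrier below gp130, rose in KO cells by 1.37 (SE 0.25, adjusted p = 0.0127) at 400 min, and without that array its adjusted p was 0.0206. Socs1, an inhibitor of interferon signalling, was higher in KO than WT cells by 2.58 (SE 0.46, adjusted p = 0.0336) at 400 min, and without the array labelled KO 400 min replicate 3 its adjusted p was 0.0599.

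**Figure D4:**
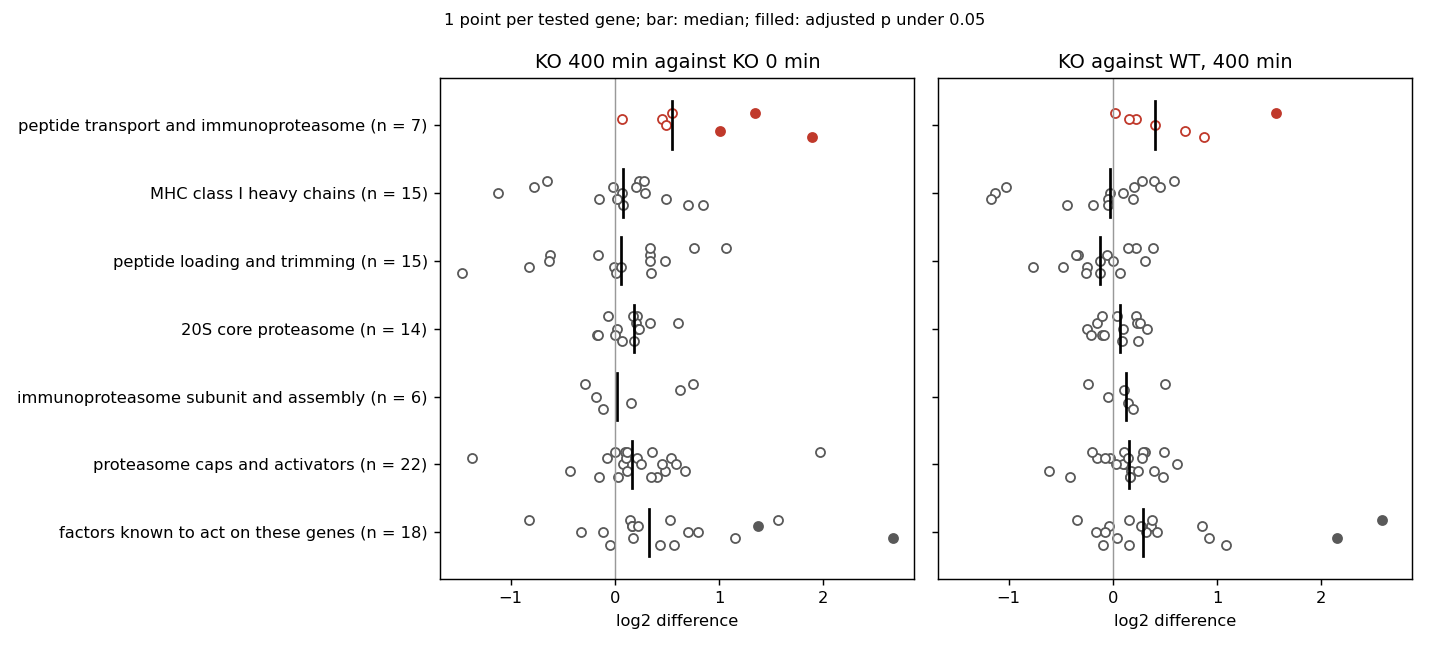
Log2 differences of tested genes, 1 point per gene, for the 7 genes described here and 6 lists of the pathway, in KO cells at 400 min against unstimulated (left) and in KO against WT cells at 400 min (right); bars are medians and filled points have an adjusted p under 0.05. Outside the 7 genes, the filled points are Irf1 (2.67) and Stat3 (1.37) on the left and Irf1 (2.15) and Socs1 (2.58) on the right.

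The 7 genes varied together to different degrees over the 17 arrays, which share genotype and time groups, so the correlations are descriptions. The arrays also include replicate 3, on which Psmb10 was at -0.75, Psme1 at -0.40 and Tap2 at -0.53 (not called) against replicates 1 and 2. The part of that shift in the correlations was not tested. Psmb10 had a Pearson correlation of 0.85 with the mean of the other genes of the group, Psmb9 0.78, Tap1 0.67, Psme1 0.59, Tapbp 0.51, Tap2 0.40 and B2m 0.18. Tap1 and Psmb9, with their shared promoter stretch, had a correlation of 0.75. Psmb9 with Psmb10, which lies on another chromosome, also had 0.75, as did Psmb9 with Tapbp and Psmb10 with Psme1. Tap1 with Psmb10 had 0.58.

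Outside the group, the genes most like the mean of the 7 over the 17 arrays were Pnp, Ifi47, Isg15, Gbp2 and Litaf, with Pearson correlations of 0.95, 0.93, 0.93, 0.92 and 0.92. They were picked for following the group over these same arrays, so their differences are descriptions and no separate result. Ifi47, an interferon-inducible GTPase, rose in KO cells by 3.09 (adjusted p = 0.0231 in limma) at 100 min, and Gbp2 by 3.31 (adjusted p = 0.00305). Isg15 was at 1.64 (adjusted p = 0.0993) and Litaf at 1.07 (adjusted p = 0.325) there, and neither passed. Pnp, purine nucleoside phosphorylase, was at 0.70 (adjusted p = 0.518) in the same comparison and did not pass. In KO cells at 400 min Gbp2 (4.68, adjusted p = 0.000143), Ifi47 (3.52, adjusted p = 0.00647) and Isg15 (1.92, adjusted p = 0.0213) passed. Pnp (1.03, adjusted p = 0.0505) and Litaf (1.27, adjusted p = 0.0698) did not. KO against WT at 400 min, Gbp2 (3.50, adjusted p = 0.00521) and Ifi47 (3.11, adjusted p = 0.0343) passed and the others did not. Each 400 min value here includes KO 400 min replicate 3.

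Markers of other cells were read beside these results. The deposited intensity summed over 4 B cell markers was 609.6 to 752 in unstimulated KO cells and 589.3 to 816.7 at 400 min. For 8 neutrophil markers it was 913.3 to 1177.3 and 1142.8 to 1433.8, so both sums overlapped. Summed over 6 dendritic cell markers, the deposited intensity was 1086.7 to 1143.6 in unstimulated KO cells, 1741.1 to 2328.9 at 100 min and 1382.1 to 2085.9 at 400 min, and 1368.3 to 1600, 1044 to 1258.3 and 991.7 to 1377.1 in WT cells. The sum was thus higher on each stimulated KO array than on the unstimulated KO arrays, along with Tap1, Psmb9 and Psmb10, and its part in their rise was not tested. Cd83 alone read 59.2 to 139.2, 480.1 to 1228.4 and 163 to 352 in KO cells at 0, 100 and 400 min, and 25.6 to 182.5, 275.9 to 430.4 and 81 to 161 in WT cells. The sum of the other 5 markers was 1004.4 to 1036.2, 1100.5 to 1261 and 1186.8 to 1733.9 in KO cells, and 1185.8 to 1574.4, 746.1 to 982.4 and 869.5 to 1296.1 in WT cells, so it too was higher on the stimulated KO arrays than on the unstimulated ones. Of the 5 tested markers limma called 0 in KO cells at 400 min, with 1 at an unadjusted p under 0.05; the remaining one, Zbtb46, read 4.7 to 127.5. In these bulk samples more cells of a type and more RNA per cell cannot be told apart.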

How the data were processed

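Gene expression in cultured mouse macrophages was read as 1 linear intensity per probe set and array. The deposited intensities had been scaled per array to a trimmed mean of about 500, from the values; the software is not given in the sources used here. Detection calls were not used, and precision is limited by the number of arrays.

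The intensities were quantile normalized between arrays, floored at the 10th percentile of all values (22.01) and log2 transformed. The 66 control probe sets were left out, and 9871 of 12488 probe sets were tested, those over the 40th percentile of the array in 2 or more arrays. limma 3.58.1 in R 4.3.3 fitted 1 mean per group over all 17 arrays, and eBayes gave two-sided tests for 11 comparisons, adjusted by Benjamini-Hochberg. The fit was tested on simulated data. Levels in the text are deposited intensities; differences are log2 values of the normalized ones, and values at the floor understate them.

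The platform annotation gave 1 symbol to 10855 probe sets, several to 396 and none to 1237. All probe sets of the 8 genes were described; of each pathway list up to 4 called genes, and the 5 genes most like the group. Genes on a list entered with their brightest probe set. The members and lists were chosen with earlier results of these data known. Promoter sequences are RefSeq's, of GRCm38.p6. The alternatives were another scaling, no floor, no filter, a block for the replicate number or for replicate 3, fewer arrays or groups, and other eBayes settings.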

Additional observations from a re-analysis of the deposited data

Results flagged for a closer look

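For Tap1 at 400 min of IL-6, all 3 KO arrays lay above the unstimulated KO arrays, and all 3 WT arrays lay below the unstimulated WT arrays. The WT difference itself did not pass in limma (-0.45, adjusted p = 0.846), and 11.9% of all tested probe sets lay wholly lower in that comparison. The KO response exceeded the WT response by 1.79 on the log2 scale. The difference of responses was tested with limma and did not pass (adjusted p = 0.181, range over the alternatives 0.0221 to 0.421).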

How the results depend on the processing

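Of 110 member values (10 probe sets in 11 comparisons), 5 were called, and 25 alternatives were run for each. No value that was called in either fit changed direction. In fits of only the groups compared, the number of called member probe sets was 0 against 1 in KO cells at 100 min, 1 against 3 in KO cells at 400 min and 0 against 1 in KO against WT at 400 min. These fits hold fewer arrays, and over all tested probe sets they called 0, 52 and 2 in the same comparisons. Fits of only replicates 1 and 2 called 117, 276 and 122 over all tested probe sets. With trend and robust settings, Tap1 was also called in WT 400 min against WT 100 min (1 against 0) and in the difference of KO and WT responses at 400 min (1 against 0; adjusted p = 0.0221). With each array left out, the counts ran from 0 to 1 in KO cells at 100 min, from 1 to 3 in KO cells at 400 min and from 0 to 1 in WT 400 min against WT 100 min. Over all tested probe sets, the number called in either direction was 57 in KO cells at 100 min (24 without KO 100 min replicate 1, 79 without WT 100 min replicate 3, 94 with replicate 3 as a batch), 180 in KO cells at 400 min (73 without KO 400 min replicate 2, 229 without WT 100 min replicate 3, 332 with the batch) and 36 in KO against WT at 400 min (11 without WT 400 min replicate 2, 55 without KO 400 min or WT 100 min replicate 3, 85 with the batch). Deviations of same-numbered arrays correlated over 0.1 in 10 of 10 pairs of replicate 3 but in 1 of 30 pairs of replicates 1 and 2, so the numbers as a whole were not taken to pair arrays. With the replicate block the number of members called was as reported in all 11 comparisons. Over all tested probe sets the block gave 86 called in KO cells at 100 min, 305 in KO cells at 400 min and 57 in KO against WT at 400 min. With the block the adjusted p in limma was 0.0139 and 0.00583 for Tap1 in KO cells at 100 and 400 min, 0.0084 for Tap1 in KO against WT at 400 min, 0.0232 for Psmb9 and 0.00151 for Psmb10. The deposited scaling, no floor and no filter kept all 5 calls. For dim probe sets such as the second of Tap1, without detection calls, small differences may not be detectable here.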
